A study of Mus musculus with 2 samples.

Results

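Slit1, Slit2 and Slit3 encode the 3 secreted Slit guidance proteins of the mouse, and Robo1, Robo2, Robo3 and Robo4 encode the 4 Roundabout receptors. These 7 genes were taken by Ensembl identifier from 43346 gene rows, and their 49 transcripts were taken from the transcript tables. Total RNA was measured in the neural tube, the embryonic structure from which the central nervous system forms, of B6NCrl embryos at embryonic day 14.5. There was 1 group of 2 libraries and no treatment or mutant, so the data hold no contrast between conditions and no p-value is given. Per the labels, replicate 1 came from a pup of one pregnant female and replicate 2 from a pup of another, each with 10 ng of RNA.

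Slit proteins are made by the floor plate, motor neurons and other cells of the neural tube and bind Robo1 and Robo2 on growing axons. Binding needs heparan sulfate and drives local collapse of the actin cytoskeleton, so that axons are repelled. Commissural axons, which cross the ventral midline, are insensitive to Slit before crossing and are repelled afterwards. Robo3 is the receptor that commissural neurons need for crossing, and in mammals it binds NELL2 rather than Slits. Robo4 is known from endothelial cells of blood vessels.

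Expected counts, which are estimated reads per gene, totalled 33360108 in replicate 1 and 26025302 in replicate 2. The libraries stand apart in tissue around the neural tube. All 9 sensory ganglion markers were at least 1.5-fold higher in replicate 2, against 10.8% of 17623 genes averaging at least 10 counts. TPM is a level per transcript length, scaled to the same sum in each library. These markers summed to 11.8 TPM in replicate 1 and 174.7 TPM in replicate 2. All 9 markers of meninges and fibroblasts were also higher there, at 81.0 and 1101 TPM in sum. In the opposite direction, 6 of 7 skeletal muscle markers were at least 1.5-fold lower in replicate 2, against 8.37% of the same 17623 genes. All 7 summed to 42.4 and 21.6 TPM. The 10 neuron markers summed to 4379 and 4525 TPM and the 8 progenitor markers to 2415 and 2632 TPM. All 18 reached 1 TPM in both libraries, against 60.8% of protein-coding genes. Sex is labelled as pooled, yet Xist was at 70.8 TPM in replicate 1 and 0.05 in replicate 2, and 4 Y-linked genes summed to 0.02 and 118.7 TPM. In whole tissue, fewer cells of a type and less RNA per cell cannot be told apart.

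The Slit genes are alike in build, and a short exon sets Slit1 and Slit2 apart from Slit3. In GENCODE release 21 the complete transcripts of Slit1, Slit2 and Slit3 had 37, 38 and 36 exons, of which 12 in each were 72 bases long, the length of 1 leucine-rich repeat. Their coding sequences shared between 65.6% and 65.9% of aligned bases in pairs, against 48.7% for the unrelated pair Slit2 and Robo2. Slit2-202 has a 24-base exon at chr5:48220967-48220990 on the plus strand, exon 16 of 38. Slit1-201 has one at chr19:41638883-41638906 on the minus strand, exon 15 of 37, with 21 of its 24 bases the same, while exons 14 and 15 of Slit3-201 join at the matching place. The sequences are shown because the annotated skipping of this exon in Slit2 could be looked up in the transcript tables. Capitals mark the exon and lower case the neighbouring exons.
Slit2 24-base exon: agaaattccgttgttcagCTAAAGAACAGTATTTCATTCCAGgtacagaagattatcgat
Slit1 24-base exon: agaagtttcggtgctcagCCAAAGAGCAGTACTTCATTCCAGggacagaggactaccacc
Slit3 junction: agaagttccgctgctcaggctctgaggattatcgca
The annotated Slit2 transcripts that skip the exon, Slit2-208 and Slit2-216, were both listed at 0 estimated reads in both libraries. The deposited posterior mean estimates gave Slit2-208 0.16% and 0.14% of the gene's TPM, and Slit2-216 0.44% and 0.31%. Slit2-208 is 5100 bases long in the files but 9960 in release 21, and Slit2-216 is 5762 and 7734. The skipping is read from release 21 and may not hold for these entries as counted.

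All 7 genes reached 1 TPM in both libraries, against 60.8% of 21474 protein-coding genes and 34.7% of all gene rows. Robo2 was the highest and Robo4 the lowest, and the libraries of each gene in between lay within a range from 10.9 to 64.1 TPM. In order of mean level the genes were Robo2, Slit2, Slit1, Robo1, Robo3, Slit3 and Robo4. Slit1 and Robo1 overlapped between libraries, as did Robo3 and Slit3, and the other neighbours in this order did not.

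Slit2 (ENSMUSG00000031558.11, chr5:47983138-48307733, plus strand) is a midline repellent and was the highest of the ligands, at 49.8 TPM in replicate 1 and 64.1 in replicate 2. Its mean was 57.0 ± 10.2 TPM (SD, n = 2), above 85.9% of protein-coding genes. Slit1 (ENSMUSG00000025020.7, chr19:41600257-41743665, minus strand), the Slit most restricted to the nervous system, was at 40.6 and 30.4 TPM, a mean of 35.5 ± 7.20. Slit2 was above Slit1 in both libraries, by 1.23-fold and 2.11-fold. Slit3 (ENSMUSG00000056427.6, chr11:35121224-35708507, plus strand), which is also made in many tissues outside the nervous system, was at 11.5 and 11.7 TPM, a mean of 11.6 ± 0.163. Slit2 thus held 48.9% and 60.3% of the summed Slit TPM, and Slit3 11.3% and 11.1%.

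Robo2 (ENSMUSG00000052516.13, chr16:73891839-74411825, minus strand), a receptor for all Slits, was at 126 TPM in replicate 1 and 136 in replicate 2. Its mean of 131 ± 7.28 TPM lay above 94.4% of protein-coding genes. Robo1 (ENSMUSG00000022883.10, chr16:72308306-73046095, plus strand), the receptor nearest to it in sequence, was at 26.6 and 36.2 TPM, a mean of 31.4 ± 6.76. The genes lie 845743 bases apart on chromosome 16, and their coding sequences shared 61.3% of aligned bases, against 57.3% to 58.7% for the other Robo pairs. By the same alignment the unrelated pair Slit2 and Robo2 shared 48.7%. Robo1 and Robo2 aligned over 92.3% of the longer sequence, and pairs with Robo4 over 62.2% to 72.1%. Robo2 held 76.3% and 69.5% of the summed Robo TPM, so most receptor transcripts in both libraries were Robo2.

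Robo3 (ENSMUSG00000032128.10, chr9:37415669-37433246, minus strand) was at 10.9 TPM in replicate 1 and 20.8 in replicate 2, a mean of 15.9 ± 6.97. Robo4 (ENSMUSG00000032125.15, chr9:37401897-37415115, plus strand) was at 1.55 and 2.65 TPM, a mean of 2.10 ± 0.778, from 115 and 144 estimated reads. The Robo3 and Robo4 genes are neighbours that end towards each other with 553 bases between them. Whether the counting used strand is not given in the sources used here, so reads that run past a gene's end could not be assigned by direction.

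Receptor transcripts exceeded ligand transcripts in sum. The Slit genes together were at 101.9 TPM in replicate 1 and 106.3 in replicate 2, and the Robo genes at 164.8 and 195.7. The log2 difference of Slit minus Robo was -0.69 and -0.88, a mean of -0.79 ± 0.13 (SD, n = 2).

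**Figure D1:**
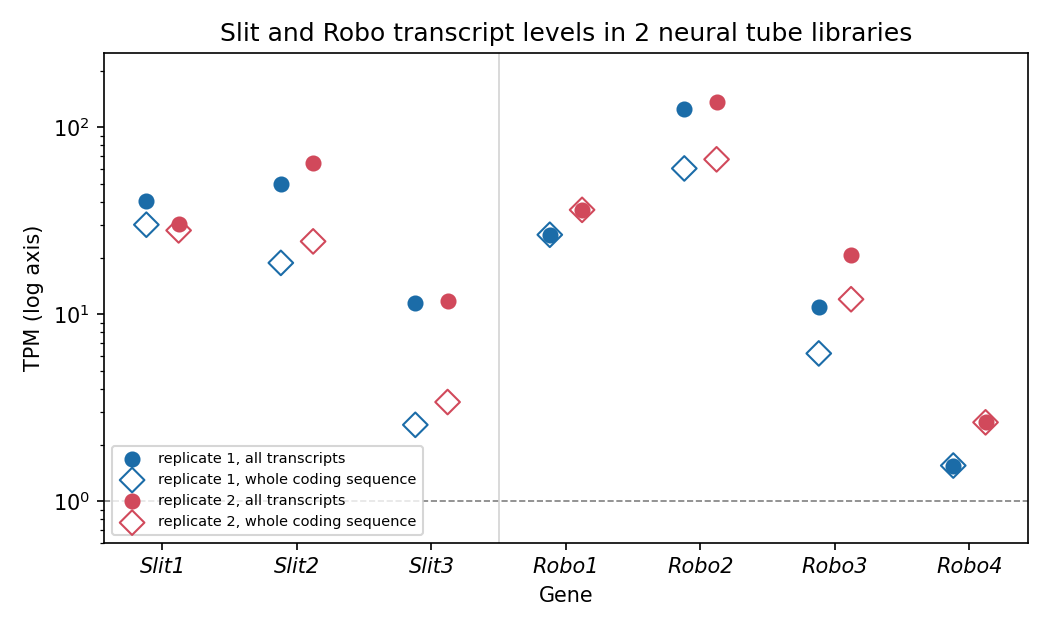
TPM on a log axis for each Slit and Robo gene, by replicate. Filled circles are all transcripts of a gene, open diamonds are transcripts with a whole annotated coding sequence, the dashed line is 1 TPM, and Robo2 is highest by either measure while Slit1 and Slit2 change places.

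Much of the TPM of Slit2, Slit3, Robo2 and Robo3 lay in annotated transcripts that do not hold a whole coding sequence. Transcripts with a whole coding sequence made up 37.8% and 38.3% of Slit2 TPM in replicates 1 and 2, 22.2% and 28.9% of Slit3, 47.9% and 49.6% of Robo2, and 56.5% and 57.9% of Robo3. The corresponding shares were 74.3% and 92.4% for Slit1. By estimated reads, whole coding sequences held the larger part of Slit2, Slit3, Robo2 and Robo3 in both libraries. They held 2414 of 3672 and 2307 of 3398 reads for Slit2, and 266 of 449 and 260 of 378 for Slit3. For Robo2 they held 8294 of 12433 and 7036 of 10126 reads, and for Robo3 577 of 850 and 831 of 1242. Classes come from release 21, while the files used release 4, and 27 of the 49 transcripts had the same length in both releases. Total RNA includes transcripts that are not fully spliced. Their part in these shares was not tested.

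Counted over whole coding sequences, Slit1 stood above Slit2. Slit1 was then at 30.1 and 28.1 TPM, a mean of 29.1 ± 1.44, and Slit2 at 18.8 and 24.5, a mean of 21.7 ± 4.04. The ratio of Slit1 to Slit2 was 1.60 and 1.15, so the order by whole-gene TPM was the opposite in both libraries. Slit3 was then at 2.98 ± 0.587 TPM and overlapped with Robo4 between libraries. Robo2 remained the highest at 63.9 ± 5.06 TPM, followed by Robo1, which overlapped with Slit1. With only 1 transcript in release 4, Robo1 could lose no TPM by this measure. Its place in this order therefore depends on the annotation.

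**Figure D2:**
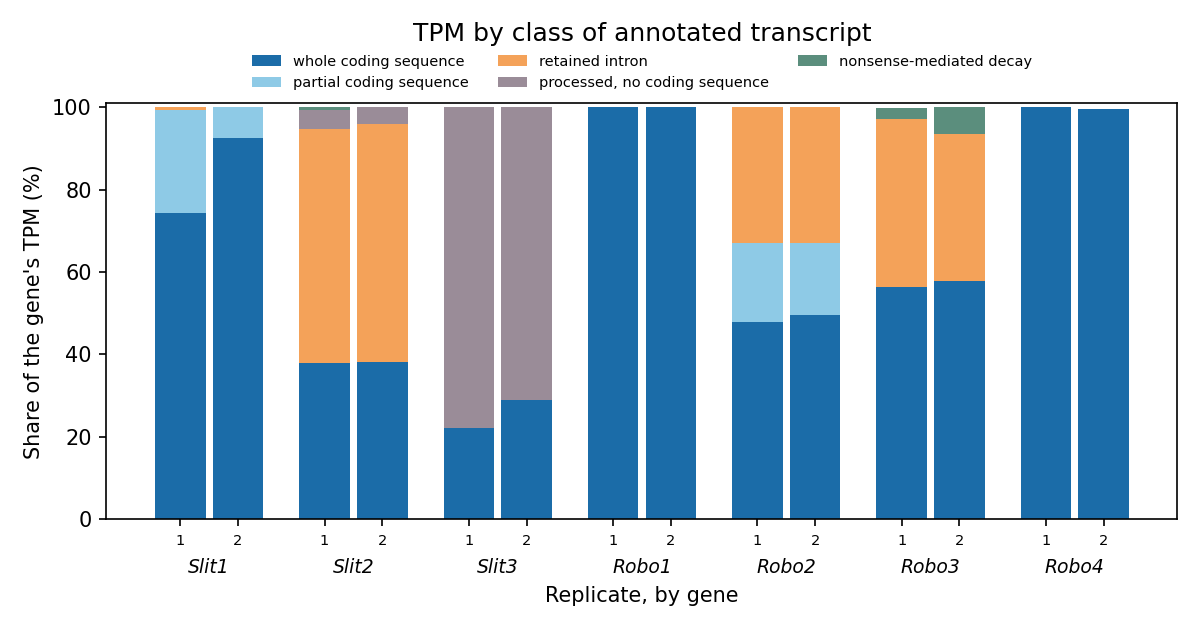
Share of each gene's TPM (percent) in classes of annotated transcript, stacked for replicates 1 and 2. Retained-intron transcripts hold 56.9% and 57.7% of Slit2, and processed transcripts hold 77.8% and 71.1% of Slit3.

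Slit2 reads were spread over a complete form and shorter intron-retaining ones. Slit2-202, which is complete, held 28.4% and 27.7% of the gene's TPM but 52.6% and 52.8% of its estimated reads. Slit2-207, which retains an intron and covers the 5′ part of the gene, held 29.3% and 26.5% of TPM. Slit2-209, a fragment of 388 bases in the files, held 15.5% and 18.1% of TPM from 45.2 and 50.2 estimated reads. Release 21 classes it as retained intron at a length of 854 bases, so the class may not hold for it as counted. A short transcript counts for more in TPM than in reads, which is why both shares are given.

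Slit2-217, also complete, held 9.47% and 10.6% of Slit2 TPM. It differs from Slit2-202 by a 27-base exon at chr5:48263641-48263667, exon 31 of 39, in capitals here between its neighbours.
Slit2 27-base exon: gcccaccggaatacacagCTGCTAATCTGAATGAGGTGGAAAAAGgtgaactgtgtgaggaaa
Of Slit2-202 and Slit2-217 together, the form with this exon held 25.0% and 27.8% of TPM. In the files the transcripts are 6854 and 5139 bases long, so reads at their ends also bear on the split.

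Slit3-202, a processed transcript of 1218 bases with no coding sequence, was the largest Slit3 entry, at 66.4% and 54.7% of TPM but 38.6% and 28.5% of estimated reads. The complete Slit3-201 held 22.2% and 28.9% of TPM and 59.3% and 68.8% of reads. Slit3-204, of 459 bases, held 11.4% and 16.4% of TPM from 9.57 and 10.4 estimated reads. Slit3 levels therefore differ by the measure used, and by reads the complete form is the larger in both libraries.

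In Slit1, the complete forms Slit1-201 and Slit1-203 held 45.1% and 29.2% of TPM in replicate 1, and 53.9% and 38.5% in replicate 2. Slit1-205, a partial coding transcript of 1220 bases from the 5′ part of the gene, differed most between the libraries. It held 25.0% of TPM from 230.2 estimated reads in replicate 1 and 7.59% from 38.7 in replicate 2. Over whole coding sequences alone, Slit1 differed less between the libraries, as the 30.1 and 28.1 TPM above show.

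Robo1 had 1 transcript in release 4, Robo1-201, against 9 in release 21, so its isoforms were not resolved. Among 9 Robo2 transcripts, Robo2-209, which retains an intron and covers the 5′ part of the gene, held 28.2% and 27.8% of TPM. The complete forms Robo2-202 and Robo2-203 held 27.7% and 20.2% in replicate 1, and 24.5% and 25.1% in replicate 2. Robo2-205, Robo2-204 and Robo2-201, each annotated in release 21 with a partial coding sequence, held between 4.23% and 8.24%. Robo2-201 is 4764 bases long in the files but 886 in release 21, and Robo2-205 is 519 and 774. The partial class may therefore not hold for these 2 entries as counted, and the whole-coding share of Robo2 leaves them out. At one exon end Robo2-202 has 9 more bases than Robo2-203, at chr16:73897007-73897015, in capitals here.
Robo2-202: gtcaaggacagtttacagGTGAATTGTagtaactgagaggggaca
Robo2-203: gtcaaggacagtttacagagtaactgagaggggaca
The ratio of Robo2-203 to Robo2-202 was 0.730 in replicate 1 and 1.02 in replicate 2, so neither form was the larger in both libraries. In the files Robo2-203 is 8124 bases long and Robo2-202 5988, so reads outside this exon end also bear on the split.

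Robo3 is known to be made in a fully spliced form and in a form that keeps an intron near its 3′ end, which gives the receptor a different tail. Before midline crossing the first is found on commissural axons, and after crossing the second. The annotation holds both. Robo3-202 splices out the intron between its exons 26 and 27 of 28, at chr9:37416921-37417325 and 405 bases long, whereas Robo3-205, annotated as a target of nonsense-mediated decay, keeps it and stops inside it. The sequence runs from the last 18 bases of exon 26 through the stop codon TAA, with the kept intron in capitals, and the spliced junction follows.
Robo3-205: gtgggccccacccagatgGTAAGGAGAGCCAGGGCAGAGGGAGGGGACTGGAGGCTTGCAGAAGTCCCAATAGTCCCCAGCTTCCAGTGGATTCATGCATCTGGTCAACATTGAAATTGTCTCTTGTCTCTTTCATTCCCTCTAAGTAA
Robo3-202: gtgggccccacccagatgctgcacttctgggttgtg

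Robo3-202 held 56.5% and 57.9% of Robo3 TPM. Robo3-205 held 2.71% in replicate 1, from 29.4 estimated reads, and 6.43% in replicate 2, from 98.1. Of these forms together, the intron-keeping one was 4.64% and 10.0%. Robo3-203, a retained-intron transcript taken here to keep this intron too, held 17.6% and 10.9%. Robo3-206, taken here to retain an intron elsewhere, held 23.2% and 24.8%. Counting Robo3-205 and Robo3-203 against Robo3-202 and Robo3-206, the share that keeps the intron was 20.3% and 17.3%. By these estimates the spliced form was the larger in both libraries. Which library had the greater intron-keeping share depended on whether Robo3-203 was counted. As counted, Robo3-205 is 5000 bases long and Robo3-202 4714, and their annotated starts differ. Robo3-203 and Robo3-206 are shorter, at 2226 and 3222 bases. Reads outside this intron therefore also bear on the split, and the shares do not measure its use alone.

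Robo4 had few reads for its split into transcripts. Robo4-201 held 53.6% and 75.9% of TPM, Robo4-203 46.4% and 9.56%, and Robo4-202 0 and 14.5%. All 3 hold a whole coding sequence, and the posterior mean shares of Robo4-201, 46.6% and 63.0%, lay closer together.

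Slit2 and Slit3 are also hosts of the miR-218 genes, and miR-218 is known to act on Robo mRNAs. In RefSeq the 5p arm of Mir218-1 lies at chr5:48223966-48223986, in the intron that follows the 24-base exon of Slit2-202. That of Mir218-2 lies at chr11:35616840-35616860, in the intron between exons 14 and 15 of Slit3-201, the junction shown for Slit3. The mature sequence is the same from both, with the seed, bases 2 to 8, in capitals.
miR-218-5p: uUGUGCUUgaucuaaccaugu
The gene rows of Mir218-1 and Mir218-2 held 0 counts in both libraries. The labels describe long RNA, so mature miRNA was not measured.

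The match to the seed, AAGCACA, was searched on the transcript strand in the annotated 3′ UTRs of 1 transcript of each gene. Robo1 had 1 match, Robo2 had 2, Robo3 and Slit2 had 1 each, and Slit1, Slit3 and Robo4 had none. The Robo3 3′ UTR is 343 bases long, and 3.10% of UTRs of like length hold a match, against 18.5% for Robo1, 38.0% for Robo2 and 12.6% for Slit2. A match is a description of letters, not a shown site. The matches are in capitals.
Robo1: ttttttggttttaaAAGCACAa
Robo2, the first: ttttatttggtgatAAGCACAa
Robo2, the other: gtcacggcagacccAAGCACAg
Robo3: cttgtgactcactgAAGCACAc
Slit2: gccaatactagcagAAGCACAt

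Between the libraries, Robo3 and Robo4 differed most and Robo2 and Slit3 least. Ratios of replicate 2 to replicate 1 were taken from estimated counts scaled by library size (TMM, a trimmed mean of gene ratios), with exact 95% intervals that cover counting error only. Robo3 was 1.86-fold higher in replicate 2 (interval 1.70 to 2.03), and Robo4 1.59-fold higher (1.24 to 2.05). These 2 of the 7 genes were at least 1.5-fold higher, against 10.8% of 17623 genes, and none was 1.5-fold lower, against 8.37%. With 1 library on each side there is no replicate check of these ratios.

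Robo1 was 1.28-fold higher in replicate 2 (1.22 to 1.33), Slit2 1.18-fold (1.12 to 1.23) and Robo2 1.03-fold (1.01 to 1.06). Slit1 was lower, at a ratio of 0.831 (0.788 to 0.877). The interval of Slit3, at 1.07, ran from 0.930 to 1.23 and included equality. Spike-in scaling raises each ratio 1.46-fold and puts Slit1 at 1.21, on the other side of 1.

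**Figure D3:**
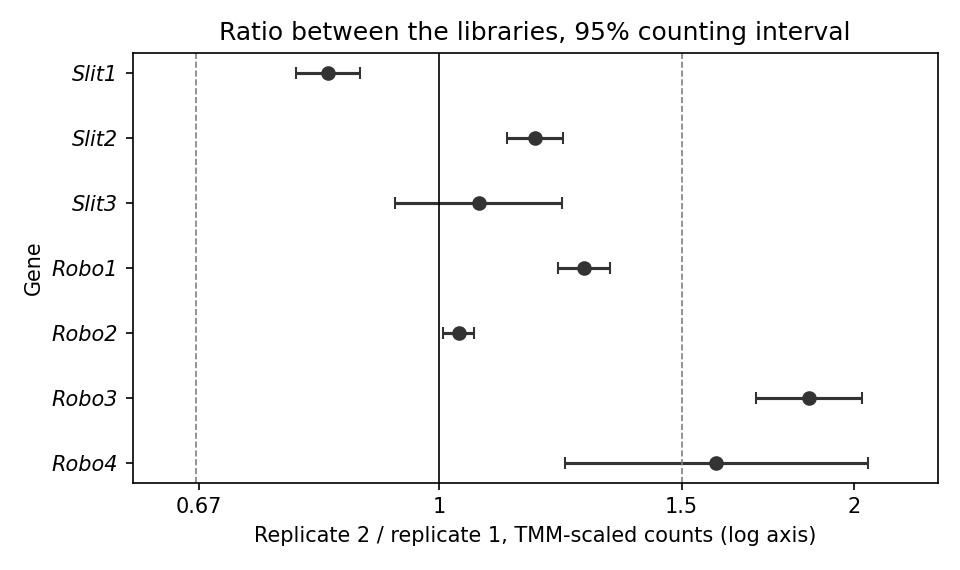
Ratio of replicate 2 to replicate 1 in TMM-scaled counts on a log axis, with exact 95% counting intervals. Solid and dashed lines mark equality and 1.5-fold in either direction, and Robo3 and Robo4 lie beyond 1.5-fold.

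Markers of other cell types moved with Robo3 and Robo4. All 10 endothelial markers were at least 1.5-fold higher in replicate 2, between 1.51-fold and 3.75-fold, against 10.8% of all genes tested. Their sum was 125 TPM in replicate 1 and 273 in replicate 2, with none at 0. The vessel cadherin Cdh5 was at 3.36 and 13.5 TPM, and the adhesion molecule Pecam1 at 7.40 and 13.9. Among 8 motor neuron markers, 3 were at least 1.5-fold higher, against 10.8% of all genes tested. They were Isl1 (3.0-fold), Isl2 (6.88-fold) and Prph (4.21-fold), and sensory neurons express these as well. The sum over all 8 was 128 and 385 TPM, and the other 5 markers had ratios between 0.799 and 1.09. The collagen gene Col1a1, a meningeal marker, was at 5.84 and 196 TPM. Of 7 Schwann cell markers 6 were at least 1.5-fold higher, against the same 10.8%. All 7 summed to 15.4 and 50.2 TPM, and Cdh19 was at 0 counts in replicate 1. The part of these cell types in the Robo3 and Robo4 ratios was not tested.

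**Figure D4:**
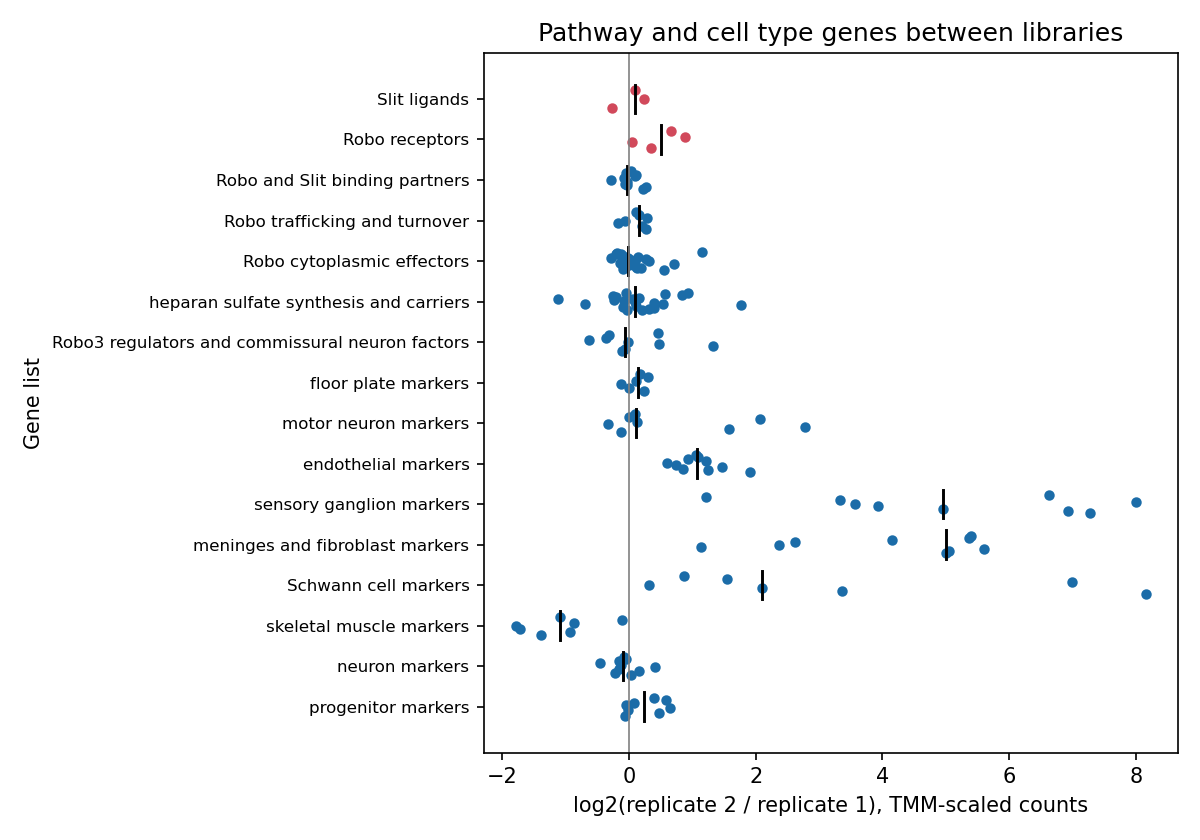
log2 ratio of replicate 2 to replicate 1 in TMM-scaled counts for the genes of each list with enough counts, one point per gene, with black bars at list medians. Of the Slit and Robo genes (red), Robo3 and Robo4 lie farthest right, at 0.89 and 0.67, while ganglion and meningeal markers have medians of 4.95 and 5.00. The highest Schwann cell point is Cdh19, whose place rests on the prior count.

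The genes that bind Slit or Robo were all expressed. Of 11 binding partners, 11 reached 1 TPM in both libraries, against 60.8% of protein-coding genes. None passed 1.5-fold in either direction, against 10.8% of all genes tested that were higher and 8.37% that were lower. Their median log2 ratio was -0.03, against 0.00 for all genes. Nell2, which encodes the Robo3 ligand, was the highest at 172 and 175 TPM. Dag1, encoding dystroglycan, which binds Slit, was at 46.0 and 60.6 TPM, and Flrt3, encoding a Robo1 partner, at 42.2 and 43.8. Nell1, a relative of Nell2, was at 38.5 and 31.9. The Robo3 ligand gene was thus above every Slit gene in both libraries.

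Genes of Robo trafficking and turnover stood high as a group, with a median of 113 and 115 TPM over 7 genes. Ndfip1 and Ndfip2, adaptors of Nedd4 ubiquitin ligases that lower Robo1 on commissural axons before crossing, were at 937 and 885 TPM and at 113 and 115. Nedd4 itself was at 348 and 446 TPM. None of the 7 passed 1.5-fold, against 10.8% of all genes tested that were higher and 8.37% that were lower.

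All 24 cytoplasmic effector genes reached 1 TPM in both libraries, against 60.8% of protein-coding genes. The small GTPases Cdc42, Rac1 and Rhoa were at 792 and 815, 281 and 296, and 119 and 141 TPM, and the kinase gene Pak3 at 230 and 196. Of the 24, 2 were 1.5-fold higher in replicate 2, Vasp (2.22-fold) and Dock1 (1.63-fold), and none was lower. Over all genes tested, 10.8% were higher and 8.37% lower. Srgap1, Srgap2 and Srgap3, whose products bind the Robo tail and inactivate small GTPases, were at 25.2 and 21.8, 42.1 and 30.4, and 53.0 and 36.0 TPM. Vasp, Dock1 and the Srgap genes were chosen after their values were seen.

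Heparan sulfate is the sugar chain that joins Slit to Robo. Of 22 genes for its synthesis and its carrier proteins, 22 reached 1 TPM in both libraries, against 60.8% of protein-coding genes. The carriers Sdc3 and Gpc1 were at 66.0 and 68.0 and at 52.6 and 47.9 TPM, and the chain-building enzyme gene Ext2 at 51.2 and 63.3. Gpc3, also a carrier, was at 26.3 and 95.4 TPM, 3.42-fold higher in replicate 2. Sdc4 (1.91-fold) and Sdc1 (1.79-fold) were higher too, and Gpc5 (0.621) and Hs6st3 (0.459) were lower. These last 4 genes were chosen after their values were seen. Of the 22 genes, 3 were at least 1.5-fold higher and 2 lower, against 10.8% and 8.37% of all genes tested.

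Of 10 Robo3 regulators and commissural neuron factors, 6 reached 1 TPM in both libraries, near the share of 60.8% over protein-coding genes. Cntn2, an axonal adhesion molecule also known as TAG-1, was the highest at 14.3 and 35.7 TPM, a ratio of 2.50. It was the only one of the 9 factors averaging at least 10 counts that was 1.5-fold higher, against 10.8% of all genes tested. The median log2 ratio of these 9 was -0.06. The transcription factor genes Zic2, Lhx9 and Barhl1 were between 3.55 and 7.64 TPM. Evx2 (0.643), the single one of these 9 lower by 1.5-fold, rested on 36 and 18 counts and was chosen after its values were seen. Over all genes tested, 8.37% were lower. Sensory ganglion markers were higher in replicate 2 too, and the part of that tissue in the Cntn2 ratio was not tested.

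Of 6 floor plate markers, 3 reached 1 TPM in both libraries, against 60.8% of protein-coding genes. Spon1 and Ntn1, secreted cues also made outside the floor plate, were at 65.2 and 78.4 and at 12.1 and 12.1 TPM, and the floor plate factor Foxa2 at 1.91 and 1.76. Slit2 exceeded Ntn1, which encodes the attractant netrin-1, in both libraries.

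Of the listed genes, 124 had 100 or more counts on average, and among them likeness to a member was the absolute difference of log2 ratios over the 2 libraries. Nearest to Robo3 were Sox10, Egfl7 and Pecam1, at differences of 0.03, 0.04 and 0.04. Nearest to Robo4 were Nes, Dock1 and Flt1, at 0.02, 0.04 and 0.07. For the ligands, Ndst4, Nell1 and Pak3 were nearest to Slit1, Cxcr4 and Ext2 to Slit2, and Slc5a7, Neo1 and Nck1 to Slit3. Nck2, Extl3 and Glce were nearest to Robo1, and Pak1, Ndst1 and Dcx to Robo2. With 1 ratio per gene, such likeness describes these libraries alone.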

How the data were processed

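Per the deposited description texts, the authors aligned reads to mm10 with GENCODE release 4. For the aligner, the quantifier and the strand setting, the sources used here give nothing. Per the file headers, the tables hold expected counts, the authors' estimates of reads without normalisation. The tables also hold TPM, which the authors scaled per length over all rows and spike-ins, and FPKM, which the authors scaled by effective length. A percent column from the authors states how much of a gene's TPM falls to a transcript. Posterior spreads and bounds, deposited as score columns, were left out.

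The 7 genes were matched by identifier to GENCODE release 21 (GRCm38), which gave symbols, classes, 1-based coordinates and exon sequences. Of the gene rows, 42462 matched a symbol and 884 did not. The miR-218 sequence came from RefSeq for GRCm38.p6. Levels are TPM as deposited. Ratios used expected counts rounded to whole numbers, TMM library sizes from edgeR 4.0.16 (R 4.3.3) and a prior count of 0.5, and the background was formed by genes averaging at least 10 counts. Intervals are Clopper-Pearson (95%), and amplified reads are not independent molecules. The ratio script was tested on simulated counts that varied by counting error alone, so that test does not bear on other variation between libraries. Other steps used Python 3.11.15, pandas 2.3.3, SciPy 1.17.1, Biopython 1.88 and matplotlib 3.10.9, and DESeq2 1.42.0 gave alternative size factors. Named were the 7 genes, transcripts with at least 5% of a gene's TPM, the 4 highest genes of each pathway list, markers beside a gene they moved with and the 3 genes nearest in ratio. Some genes that this rule names are not reported here. The members and lists were chosen with earlier results of these data known.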

Additional observations from a re-analysis of the deposited data

How the results depend on the processing

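No paired analysis was possible because there is 1 group. Spike-in scaling gave ratios of replicate 2 to replicate 1 of 1.21 for Slit1, which changed direction, 1.71 for Slit2, 1.56 for Slit3, 1.86 for Robo1, 1.51 for Robo2, 2.71 for Robo3 and 2.32 for Robo4. Ratios of deposited TPM were 0.749 for Slit1, 1.29 for Slit2, 1.36 for Robo1 and 1.08 for Robo2. Ratios of deposited FPKM were 0.710 for Slit1 and 0.966 for Slit3, which changed direction. Of 42 alternative ratios, 27 kept their direction and stayed within the counting interval. Whole coding sequences, an alternative chosen after seeing the data, gave ratios of 1.24 for Slit3 and 1.08 for Robo2, levels of 21.7 TPM for Slit2, 2.98 for Slit3 and 63.9 for Robo2, and a log2 difference of Slit minus Robo of -0.98. Robo1, with 1 transcript in release 4, could lose no TPM by that measure. With Robo1 and Robo2 as the receptors, the log2 difference over all transcripts was -0.64. The share of Slit2-202 was 28.0% of TPM, 26.6% by posterior mean and 52.7% of estimated reads. For Robo3-202 the shares were 57.2%, 54.6% and 67.4%. By estimated reads Slit3-202 held 33.5% and Robo2-209 22.5%. Genes past 1.5-fold numbered 3386, against 8938 with no count filter, 1299 at a mean count of at least 100 and 8222 by spike-ins, where 44.4% were higher and 2.25% lower. At 5 TPM, and at 1 FPKM, 6 of the 7 genes were detected, all but Robo4. The cause of these shifts was not tested. Depth limits transcripts with few reads, such as Slit3-204 and those of Robo4.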
